A study of Mus musculus with 8 samples.

Results

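The 35 genes described here promote, restrain or carry out the passage of a cell from G1 into S phase. They were picked by gene symbol, and all 35 were found among the 43629 Ensembl genes counted in mouse splenic follicular B cells. There are 9 cyclin and CDK genes (with Cdc25a, the phosphatase that activates CDK2), 3 CDK inhibitor genes, 11 E2F and pocket protein genes, and 12 genes of replication licensing and nucleotide supply. RNA came from 8 libraries of sorted cells, 4 per group. Controls carried the Rosa26GFPZFP36L1 allele without Cre. The group called GFP-ZFP36L1 had this allele plus 1 copy of CD23cre, which drives Cre recombinase in mature B cells, so Cre and the tagged protein cannot be told apart as sources of a difference. Cells were gated as B220+CD93+CD21+CD23+ after B cell enrichment; CD93 is better known from immature B cells, and the name follicular is that of the labels. Strain, age and sex are not in the labels. Nothing in the labels ties each library to an animal of its own, and p-values therefore cover the spread among these libraries only.

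In a resting lymphocyte the pocket proteins RB1, RBL1 and RBL2 hold E2F factors in check. D cyclins with CDK4 or CDK6, and then E cyclins with CDK2, phosphorylate the pocket proteins, which frees E2F1, E2F2 and E2F3 to switch on genes for loading the MCM helicase and for making deoxynucleotides. CDK inhibitors oppose these kinases, and follicular B cells stay mostly out of cycle until antigen drives them into it. ZFP36L1 recognises UAUUUAU in 3' UTRs and speeds decay of the bound mRNA.

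Library totals ran from 38947758 to 51024233 counts. Levels are CPM, counts scaled to a common library size with TMM factors. The 9 B cell markers had group means of 1212 to 5413 CPM. T and NK cell markers reached at most 0.385 CPM, myeloid markers 3.41 CPM and erythroid markers 3.69 CPM, and Nkg7 and Ncr1 were at 0 in all libraries. Zfp36l1 averaged 547 ± 35.1 CPM in controls and 439 ± 28.6 CPM (SD, n = 4 each) in the GFP-ZFP36L1 group, which goes against the label, and counts per gene do not separate the allele from the endogenous gene. Gt(ROSA)26Sor, the noncoding gene at the targeted locus, averaged 16.9 ± 2.58 CPM in controls and 3.90 ± 0.604 CPM in that group, without overlap (log2 fold change -2.11, edgeR adjusted p 4.14e-05), so this locus does separate the groups. Because of Zfp36l1 that group is called the labelled libraries, and every direction given is labelled libraries relative to controls.

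The members covered a wide range of levels in the controls. Compared per length, as CPM per kb of merged exons, Cdkn1b (p27, an inhibitor of cyclin E and CDK2) was highest at 57.4 ± 4.28 (SD, n = 4), above 93.9% of tested protein-coding genes. Pcna, the sliding clamp of DNA polymerases, had 39.5 ± 3.03 CPM per kb, E2f4, an E2F of the repressing type, had 33.7 ± 0.461, and Cdk4 had 26.4 ± 1.73. On this length these neighbours in the order were further apart than their SDs. The order depended on the length used. Per kb of the longest transcript Pcna had 62.5 and Cdkn1b 57.4 CPM per kb, and Cdk4 had 41.7 and E2f4 41.5. By that length Cdk2 at 25.8 and Rbl2 at 23.6 CPM per kb also stood above Cdkn2d at 22.3.

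In CPM per kb of merged exons, Cdkn2d, Mcm4 and Cdt1 followed at 20.2 ± 2.94, 19.3 ± 0.603 and 18.96 ± 0.998. They did not differ beyond their spread. Among cyclins, Ccnd3 had 8.65 ± 0.558, Ccnd2 4.39 ± 0.425 and Ccne1 2.19 ± 0.200 CPM per kb. Ccne2 and Ccnd1 stood near the bottom of the tested genes, at 0.138 ± 0.0325 and 0.0661 ± 0.00740 CPM per kb. Of the activating E2F genes, E2f2 was highest at 13.1 ± 0.674, with E2f3 at 3.30 ± 0.275 and E2f1 at 1.12 ± 0.174 CPM per kb. The pocket protein genes Rb1, Rbl2 and Rbl1 had 17.1 ± 1.64, 15.4 ± 0.895 and 7.58 ± 0.498 CPM per kb. The atypical repressors E2f7 and E2f8 had 0 to 5 and 1 to 7 counts per library and did not pass the filter on low counts. Without that filter they were not called (edgeR adjusted p 0.855 and 0.780).

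The 6 subunit genes of the MCM helicase lay between 5.80 (Mcm2) and 19.3 (Mcm4) CPM per kb in controls. Cdc6, which loads the helicase together with Cdt1, had 0.0972 ± 0.0330 CPM per kb. Rrm1, the large subunit of ribonucleotide reductase, had 5.49 ± 0.246 CPM per kb against 1.17 ± 0.0858 for the small subunit Rrm2. Tyms, which makes thymidylate, had 0.784 ± 0.0847 CPM per kb.

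**Figure D1:**
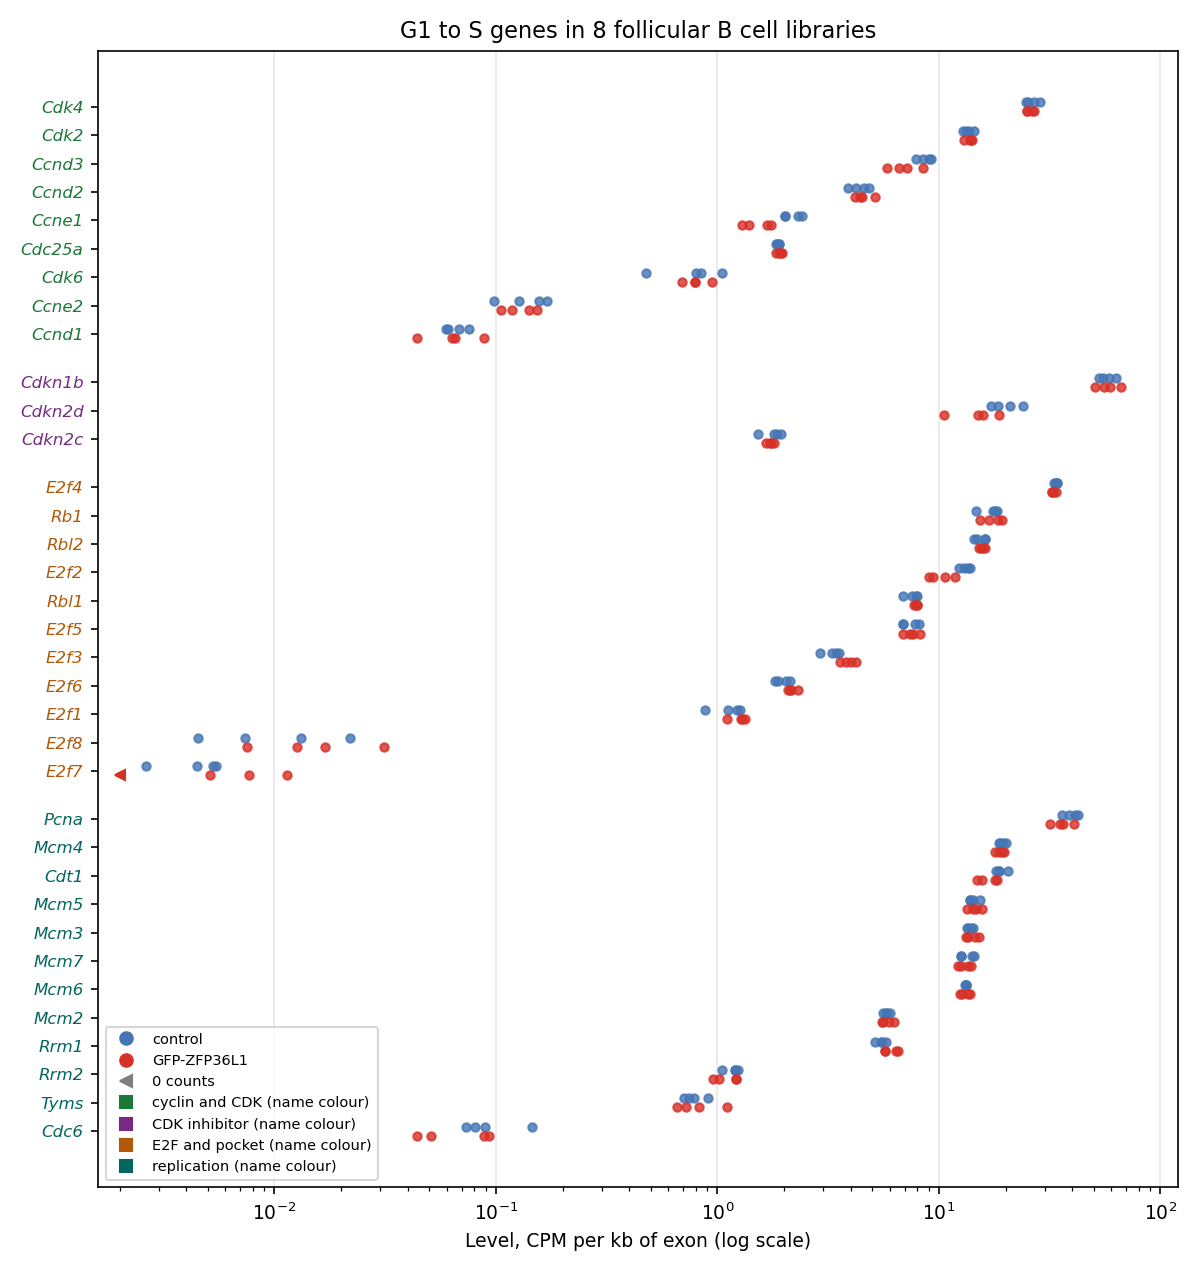
Level of each of the 35 genes in every library, in CPM per kb of merged exons on a log axis, by role class, controls in blue and GFP-ZFP36L1 libraries in red; the triangle marks a library with 0 counts. Cdkn1b sits highest and E2f7 lowest, and among the tested genes the 2 colours are fully apart in Ccne1, E2f2 and E2f3.

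Of the 33 members tested, the cyclin gene Ccne1 and the E2F gene E2f2 fell in the labelled libraries and 0 rose. These 2 are 6.06% of the tested members. Among all 13035 tested genes 3.12% were called, 1.3% lower and 1.83% higher (edgeR quasi-likelihood, Benjamini-Hochberg adjusted p under 0.05). DESeq2 called 2 members lower and 0 higher, with 6.89% of all genes called (2.99% lower and 3.9% higher). Limma voom called 3 lower and 0 higher, with 8.08% of all genes called (3.77% lower and 4.31% higher). At an unadjusted p under 0.05 edgeR had 5 members lower and 2 higher, 21.2% in all, where the background was 17.3% (7.87% lower and 9.47% higher).

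The median log2 fold change was 0.01 over the tested members, 17 of them positive and 16 negative, and -0.01 over all tested genes. The groups did not overlap in 3 members (9.09%), Ccne1 and E2f2 on the lower side and E2f3 on the higher. Over all tested genes 11.2% did not overlap, 4.98% lower and 6.24% higher, so the share in the members was near the background. In the authors' deposited table, where 6.63% of genes were called (2.87% lower and 3.76% higher), the same 2 members were called lower and 0 higher.

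**Figure D2:**
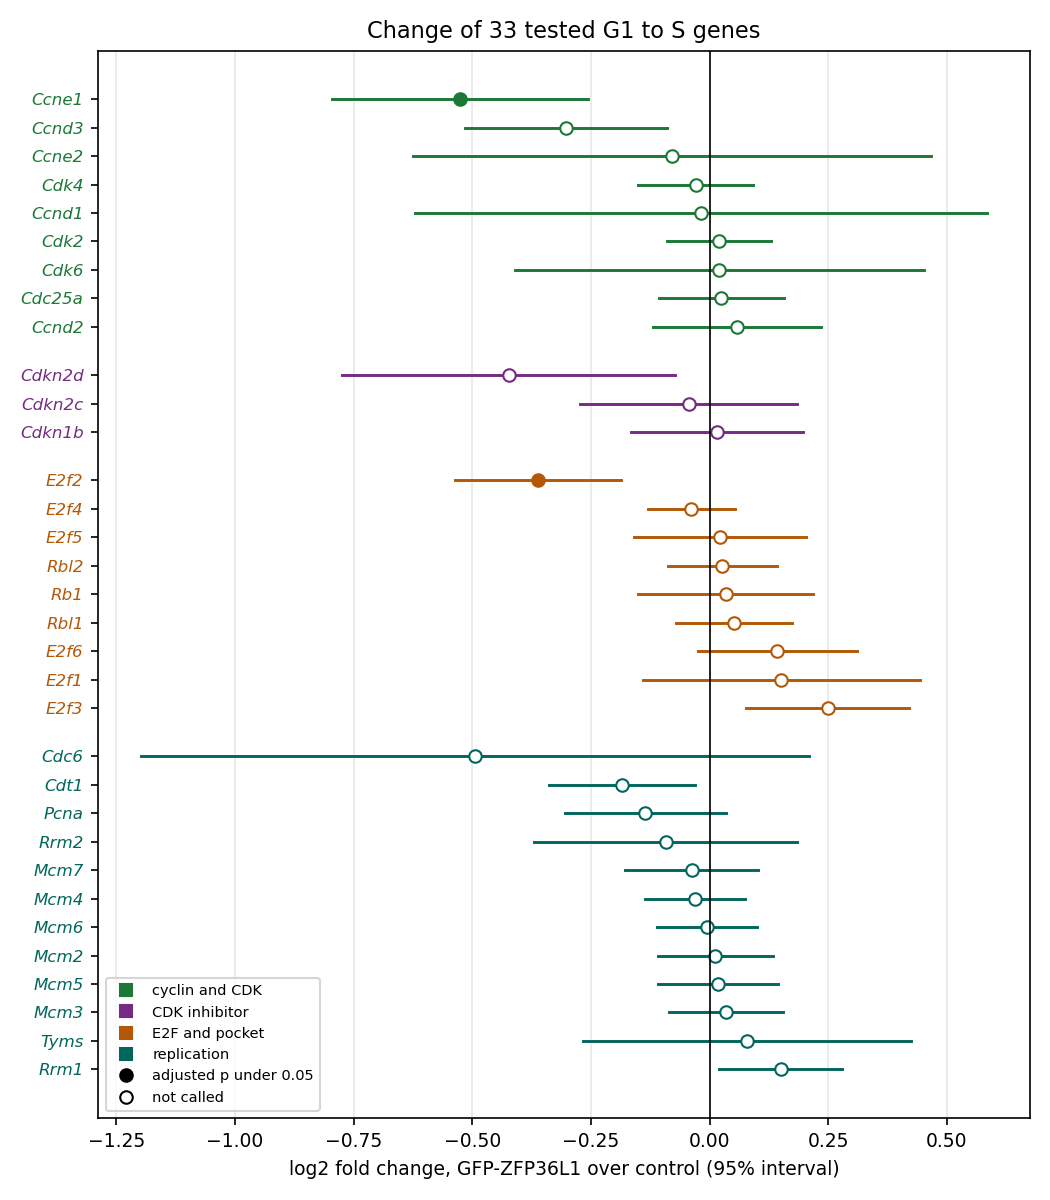
Log2 fold change of the 33 tested genes, GFP-ZFP36L1 over control, with the 95% interval from edgeR, by role class; filled points passed at adjusted p under 0.05. Ccne1 at -0.53 and E2f2 at -0.36 are filled, and the 6 MCM genes lie between -0.04 and 0.03.

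Ccne1 encodes cyclin E1, the partner of CDK2 at the start of S phase (ENSMUSG00000002068, chr7:38097984-38107534, minus strand, GRCm38). Controls 1 to 4 had 6.14, 6.44, 5.40 and 5.38 CPM, and labelled libraries 1 to 4 had 4.47, 3.43, 4.63 and 3.70 CPM. All labelled values were below all control values. The log2 fold change was -0.53 ± 0.12 (SE), a fold of 0.694 (edgeR adjusted p 0.0445). Removal of any 1 library other than labelled replicate 1 ended the call (edgeR adjusted p 0.0710 to 0.140). The authors' deposited table lists Ccne1 at a log2 fold change of -0.40 and an adjusted p of 0.00299.

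Ccnd3, the D cyclin gene of highest level here, had 80.4, 78.9, 74.7 and 69.5 CPM in controls 1 to 4. The labelled libraries 1 to 4 had 74.2, 62.8, 57.9 and 51.3 CPM. Labelled replicate 1 lay inside the control range and the other three below it. Its log2 fold change of -0.30 ± 0.10 (SE) did not pass (edgeR adjusted p 0.125). It passed in 3 of 16 alternatives: limma voom (adjusted p 0.0171), a fit with the title number (edgeR adjusted p 0.00600) and a fit without labelled replicate 1 (edgeR adjusted p 0.0121). Exons of Bysl on the other strand overlap 361 bp of Ccnd3.

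The other cyclin and CDK genes did not pass. Cdk4, which encodes a D cyclin kinase, had 92.6, 79.98, 87.8 and 82.4 CPM in controls and 85.9, 81.6, 81.1 and 87.2 CPM with the label. These ranges overlapped, and the log2 fold change was -0.03 with a 95% interval of -0.15 to 0.09. Intervals were -0.09 to 0.13 for Cdk2, -0.11 to 0.16 for Cdc25a and -0.12 to 0.23 for Ccnd2. They were wider for Cdk6 (-0.41 to 0.45), Ccne2 (-0.63 to 0.47) and Ccnd1 (-0.62 to 0.59), the last resting on 9 to 17 counts per library.

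None of the 3 CDK inhibitor genes passed, and 1, Cdkn2d, had an unadjusted p under 0.05; DESeq2 and limma voom called 0. Cdkn1b had 266.6, 286.1, 251.7 and 241.2 CPM in controls 1 to 4 and 254.1, 303.2, 268.6 and 231.2 CPM in labelled replicates 1 to 4. The labelled libraries held both the highest and the lowest value, and the log2 fold change was 0.02 (95% interval -0.17 to 0.20). Cdkn2d, an inhibitor of CDK4 and CDK6, had 37.6, 33.1, 29.1 and 27.2 CPM in controls, against 29.4, 23.7, 24.9 and 16.7 CPM with the label. Labelled replicate 1 lay inside the control range and the rest below it. The log2 fold change was -0.42 ± 0.16 (SE) (edgeR adjusted p 0.194, and 0.0116 with the title number in the fit). Cdkn2c, of the same family, averaged 4.79 ± 0.483 CPM in controls and 4.65 ± 0.168 CPM with the label (SD, n = 4 each).

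E2f2 (ENSMUSG00000018983, chr4:136172394-136196057, plus strand, GRCm38) encodes an activating E2F. Controls 1 to 4 had 59.97, 66.3, 63.1 and 67.2 CPM, and labelled libraries 1 to 4 had 52.2, 43.9, 57.5 and 46.1 CPM. The highest labelled library was below the lowest control. The log2 fold change was -0.36 ± 0.08 (SE), a fold of 0.778 (edgeR adjusted p 0.0362). The call ended without control replicate 2, 3 or 4 or labelled replicate 2 or 4 (edgeR adjusted p 0.0784 to 0.108). The authors' deposited table lists E2f2 at a log2 fold change of -0.31 and an adjusted p of 0.00291.

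E2f3, another activating E2F (ENSMUSG00000016477, chr13:29906575-29986063, minus strand), had 19.2, 15.8, 17.9 and 18.6 CPM in controls 1 to 4. The labelled libraries 1 to 4 had 20.7, 21.9, 19.5 and 23.05 CPM. Every labelled value was above every control value, narrowly for the nearest pair. The log2 fold change of 0.25 ± 0.08 (SE) did not pass (edgeR adjusted p 0.118), nor in any of 16 alternatives (adjusted p 0.0550 to 0.282). E2f1 averaged 3.54 ± 0.548 CPM in controls and 3.94 ± 0.310 CPM with the label (SD, n = 4 each), with a 95% interval of the log2 fold change of -0.14 to 0.44.

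E2f4 had 81.1, 83.5, 82.9 and 83.5 CPM in controls and 82.8, 80.5, 79.4 and 79.6 CPM with the label. Its groups overlapped, with a log2 fold change of -0.04 (95% interval -0.13 to 0.05). E2f5 and E2f6, also of the repressing type, had log2 fold changes of 0.02 and 0.14. For the pocket protein genes Rb1, Rbl1 and Rbl2 these were 0.03, 0.05 and 0.03, with interval bounds from -0.15 to 0.22.

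**Figure D3:**
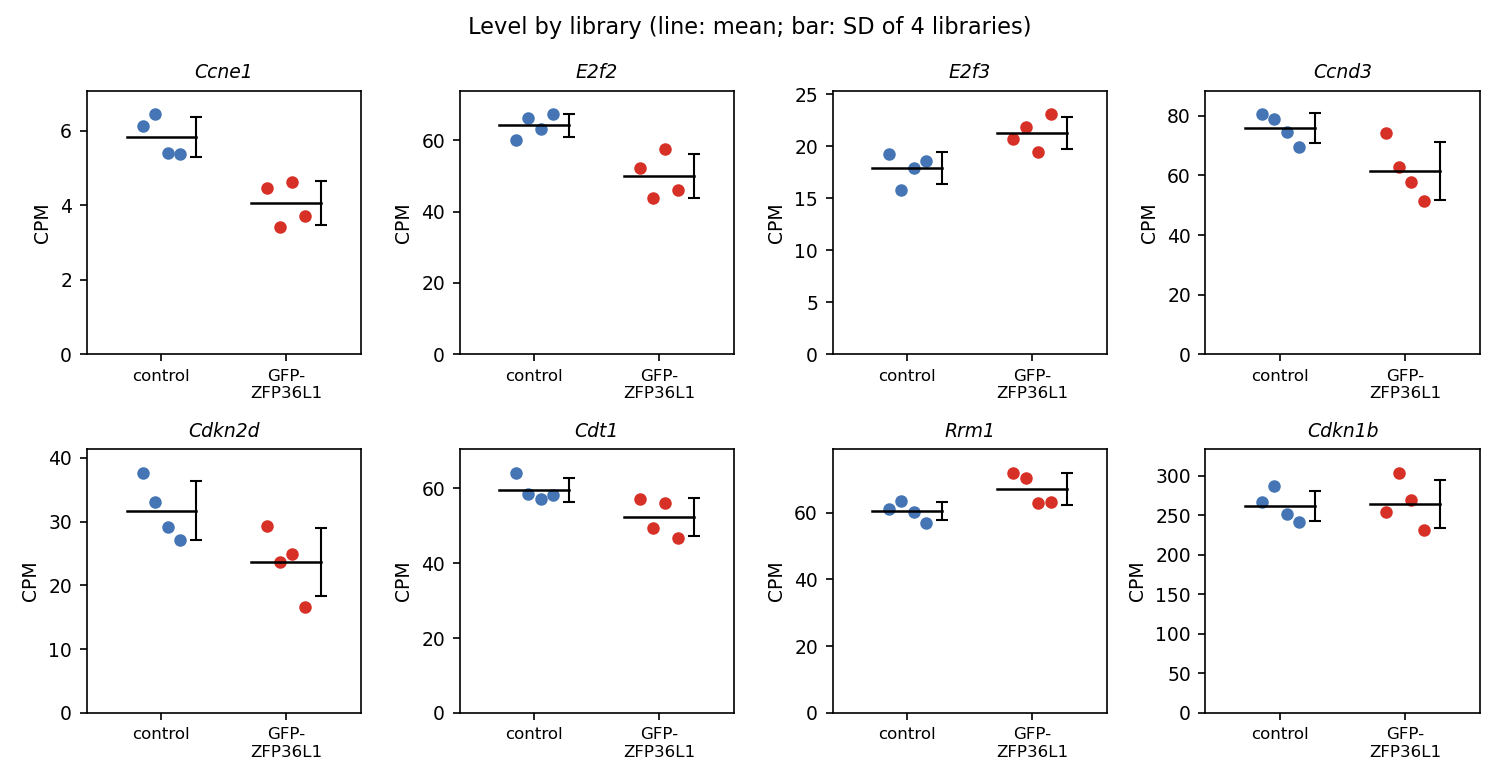
Level in CPM of 8 genes in each library, replicates 1 to 4 from left to right within a group, with the mean as a line and the SD of 4 libraries as a bar; each axis starts at 0. The groups are apart in Ccne1, E2f2 and E2f3, labelled replicate 1 lies inside the control range in Ccnd3 and Cdkn2d, and Cdkn1b overlaps throughout.

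No replication gene passed by edgeR, DESeq2 or limma voom, and 1 lower (Cdt1) and 1 higher (Rrm1) had an unadjusted p under 0.05 in edgeR. The 6 MCM genes had log2 fold changes from -0.04 (Mcm7) to 0.03 (Mcm3), with interval bounds from -0.18 to 0.15. Mcm6 had 61.7, 61.9, 61.5 and 61.7 CPM in controls 1 to 4, the smallest spread relative to its level among the tested members in controls. Its labelled libraries had 64.7, 63.2, 58.4 and 59.4 CPM, 2 above and 2 below all controls. Pcna had 102.5, 98.8, 92.4 and 85.98 CPM in controls and 97.97, 87.01, 84.8 and 75.8 CPM with the label. Its groups overlapped, with a log2 fold change of -0.14 (95% interval -0.31 to 0.03).

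Cdt1 had 64.1, 58.5, 57.1 and 58.4 CPM in controls 1 to 4 and 57.3, 49.3, 56.1 and 46.8 CPM in labelled replicates 1 to 4. Of the labelled libraries only replicate 1 exceeded the lowest control, and the log2 fold change was -0.19 ± 0.07 (SE) (edgeR adjusted p 0.192). Rrm1 had 61.3, 63.4, 60.3 and 56.9 CPM in controls, against 71.9, 70.5, 62.9 and 63.2 CPM with the label. Labelled replicates 3 and 4 lay just below the highest control. Its log2 fold change was 0.15 ± 0.06 (SE) (edgeR adjusted p 0.210, and 0.0235 with the title number in the fit). Under upper-quartile factors, a check of overlap added after the data were seen, neither Cdt1 nor Rrm1 overlapped between groups.

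Cdc6 had the largest log2 fold change of the replication genes in size, -0.49 ± 0.32 (SE). Controls 1 to 4 had 0.382, 0.422, 0.761 and 0.467 CPM and labelled libraries 1 to 4 had 0.230, 0.267, 0.484 and 0.463 CPM, from 10 to 32 counts per library. The groups overlapped, and the 95% interval of -1.20 to 0.21 shows how little this depth resolves. Rrm2 and Tyms had log2 fold changes of -0.09 and 0.08. Of the 31 members not called, 26 had a 95% interval within 0.5 of 0 on the log2 scale, and the exceptions were Cdc6, Ccnd1, Ccne2, Cdkn2d and Ccnd3.

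Sample titles carry numbers from 1 to 8, odd for controls and even for the others, and the labels do not say what they mark. With group kept in the fit, this number was called as a linear term in 9 members, or 27.3% (edgeR, Benjamini-Hochberg adjusted). Over all tested genes the share was 20.8%, with 9.04% higher and 11.7% lower at larger numbers. Ccnd2, Cdk6, Rb1 and Tyms were higher with the number, by log2 changes of 0.05, 0.12, 0.04 and 0.08 per step. Ccnd3, Cdkn2d, Mcm5, Mcm7 and Pcna were lower with it, by -0.06, -0.10, -0.03, -0.04 and -0.05 per step. For Ccne1 and E2f2 the number had edgeR adjusted p of 0.419 and 0.812.

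Of 79 further genes of the pathway, from other CDK inhibitors to origin firing and DNA synthesis, 75 were tested. None passed in edgeR, with 4 higher and 7 lower at an unadjusted p under 0.05 (14.7%, against 17.3% of all tested genes). DESeq2 called 2 higher and 2 lower and limma voom 2 higher and 1 lower, where 6.89% and 8.08% of all genes were called. Their median log2 fold change was 0.00, with 38 positive and 37 negative. The groups did not overlap in 5 of them (6.67%, against 11.2% of all tested genes).

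Rfc2, a subunit of the clamp loader, averaged 87.4 ± 3.76 CPM in controls and 76.1 ± 2.68 CPM with the label (SD, n = 4 each; edgeR adjusted p 0.0507). Pola2, of the polymerase alpha and primase complex, averaged 42.4 ± 0.830 and 48.4 ± 2.43 CPM in the same order (edgeR adjusted p 0.0700). Lig1, the replicative DNA ligase, named after its values were seen, averaged 22.1 ± 1.27 and 25.8 ± 0.465 CPM (edgeR adjusted p 0.0702). These genes did not overlap between groups, and DESeq2 and limma voom called all 3, Rfc2 lower and the other two higher.

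Cdkn1a, the CDK inhibitor gene for p21, averaged 2.24 ± 0.261 and 1.38 ± 0.462 CPM, a log2 fold change of -0.70 ± 0.22 (SE) (edgeR adjusted p 0.115), and DESeq2 called it lower. The anti-proliferative genes Btg2 and Btg1 had log2 fold changes of -0.23 and -0.23 (edgeR adjusted p 0.134 and 0.185). Fbxw7, the adaptor that directs cyclin E to degradation, had 0.11 (edgeR adjusted p 0.347). On the same log2 scale Tfdp2, an E2F partner, and Lin37, of the DREAM complex, had 0.16 and -0.12. Wee1, the kinase that restrains CDKs, and the pseudogene Cdk3-ps had 0.22 and -0.40. The helicase gene Mcm8 had 0.22, and Gmnn, whose product geminin holds back Cdt1, had 0.12.

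Markers of dividing cells were low. Among 10, the highest group mean was 5.22 CPM (Top2a), and their sum ran from 22.9 to 24.5 CPM in controls and from 20.7 to 23.2 CPM with the label. Of the 9 tested 0 passed in edgeR, with 1 higher and 2 lower at an unadjusted p under 0.05 (33.3%, against 17.3% of all tested genes). Their median log2 fold change was -0.37, with 6 of 9 negative. Aurkb and Ccnb2, kinase and cyclin genes of mitosis, were lower without overlap (22.2% of those tested, against 11.2% of all genes). Their log2 fold changes were -0.41 and -0.47, and Mki67 had -0.49. Ccnb1, another mitotic cyclin gene and the 1 higher at that unadjusted p, had 0.49. Top2a and Aurka were also positive, at 0.13 and 0.08. Plasma cell markers summed to 306.6 to 325.7 CPM in controls and 321.7 to 352 CPM with the label, mostly from Irf4 and Xbp1 (207.9 and 95.9 CPM in controls), which B cells also express. Of the 5 tested, 2 had positive and 3 negative log2 fold changes, among them Prdm1 at 0.59 and Jchain at -0.79, and Tnfrsf17 was at 0 in both groups. Of 9 B cell markers Ighd was lower and of 8 myeloid markers Itgam was higher (edgeR adjusted p 0.0493 and 0.0395). The part of these markers in the member values was not tested. In bulk RNA, fewer cells with a transcript and less of it per cell cannot be told apart.

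The ZFP36L1 heptamer UAUUUAU was sought, in DNA letters as TATTTAT and along the sense strand, in the longest annotated 3' UTR of each gene. It occurred in 15 of the 35 members (42.9%) and in 29.7% of 10953 tested protein-coding genes. The 15 include E2f7 and E2f8, which were not tested, and 13 of the 33 tested members held it. Per kb of 3' UTR there were 0.346 heptamers in the members and 0.283 in the tested genes. By class, at least 1 was found in 6 of 11 E2F and pocket genes, 4 of 9 cyclin and CDK genes, 2 of 3 CDK inhibitor genes and 3 of 12 replication genes. The nonamer, with a further U on each side, was found in 4 members, Ccne2, Cdk6, E2f1 and E2f7.

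Sites are shown for E2f2, which fell, for its relatives E2f3 and E2f1, and for Cdkn1b and Cdkn2d, the inhibitor genes that hold any. Each is given 5′ to 3′ on the sense strand, with the heptamer in capitals.
E2f2: aacgcctttgTATTTATttctagttca
E2f3 first site: caatgccctaTATTTATctcatctggt
E2f3 second site: tgtgatgccgTATTTATtgttttaaga
E2f1 first site: atggagcgttTATTTATttatcgaggc
E2f1 last site: ccaagcagttTATTTATtgggaaaggg
Cdkn1b first site: ttagtgcctgTATTTATccatcattac
Cdkn1b second site: acatggttgcTATTTATttctacatga
Cdkn1b last site: tatactaactTATTTATgttaaaaaga
Cdkn2d: gaaatataaaTATTTATtgctttatgg
The E2f2 stretch is at chr4:136193346-136193372 (plus strand, GRCm38), and its heptamer lies 319 nt after the stop codon in a 3' UTR of 3020 nt. The E2f3 stretches are at chr13:29907795-29907821 and chr13:29907623-29907649 (minus strand), with heptamers at 2092 and 2264 nt of 3328 nt. Those of E2f1 are at chr2:154560034-154560060 and chr2:154559900-154559926 (minus strand), both within a nonamer, at 638 and 772 nt of 1281 nt. A further E2f1 heptamer at 642 nt overlaps the first. The Cdkn1b stretches are at chr6:134924119-134924145, chr6:134924747-134924773 and chr6:134925267-134925293 (plus strand). That of Cdkn2d is at chr9:21288466-21288492 (minus strand), with its heptamer at 891 nt of 907 nt, close to the annotated end.

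Members with a heptamer lay on both sides of 0. Ccne1, which fell, had 0 heptamers in 531 nt, and Ccnd3 had 0 in 915 nt. Cdkn1b and E2f1, with 3 each, had log2 fold changes of 0.02 and 0.15. The 13 tested members with a heptamer had a median log2 fold change of 0.02 (5 negative), and the 20 without had -0.02 (11 negative). Over the tested protein-coding genes these medians were 0.01 and -0.01.

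**Figure D4:**
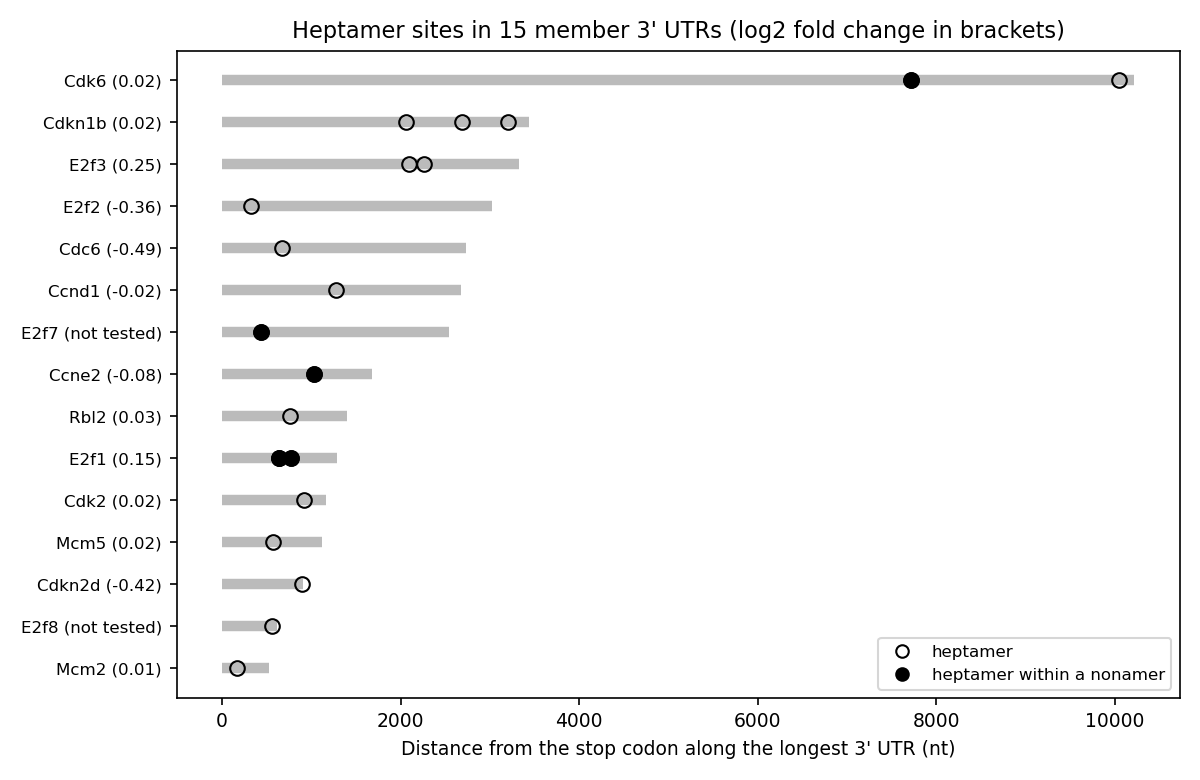
Heptamer sites along the longest annotated 3' UTR of the 15 members that hold at least 1, as distance from the stop codon in nt, with the log2 fold change in brackets; filled points lie within a nonamer. E2f2 has 1 site at 319 nt and -0.36, while Cdkn1b and E2f1 have 3 sites each and 0.02 and 0.15.

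Promoters were read for E2F words because E2F factors are members here and known regulators of replication genes. The words TTTCCCGC, TTTCGCGC, TTTGCCGC and TTTGGCGC were searched on both strands, overlapping matches included, in RefSeq promoters of 300 bases (GRCm38.p6, 250 before to 50 after the start). Of 28 members matched to a promoter, 12 (42.9%) held a word, against 4.81% of 9270 tested genes and 2.605% of all 27025 genes with a promoter. They were 6 of 11 replication genes, 4 of 8 E2F and pocket genes, 2 of 6 cyclin and CDK genes and 0 of 3 CDK inhibitor genes. The 28 include E2f7, with a word, and E2f8, without, which were not tested. Of the tested members 11 held a word and 15 did not. Ccnd1, Ccnd2, Ccne2, E2f4, E2f5, Rb1 and Mcm4 were not matched.

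Matches are shown for E2f2, which fell, and for E2f3, Mcm6, Mcm5 and Cdc25a, which did not pass, on the strand of the gene with the word or its reverse complement in capitals.
E2f2: cggcatatagTTTGGCGCtaa
E2f3: tgaaaagccgGCGGGAAAtctgagtttc
Mcm6: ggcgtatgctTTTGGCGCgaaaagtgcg
Mcm5: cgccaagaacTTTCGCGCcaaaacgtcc
Cdc25a: gtgaattccgTTTGGCGCcaactaggaa
The E2f2 stretch, at chr4:136172303-136172323 (plus strand), has its word 39 bases after the start in 1 of 2 listed promoters, and is cut short by the end of the window. The E2f3 word, at chr13:29986057-29986084 (minus strand) and also in 1 of 2 listed promoters, lies 11 bases before the start. The Mcm6 word, at chr1:128359798-128359825 (minus strand), lies 110 bases before it and is 1 of 3. The words of Mcm5, at chr8:75109346-75109373, and Cdc25a, at chr9:109875502-109875529 (both plus strand), lie 153 and 67 bases before it. In the Mcm6 and Mcm5 stretches a further match, 106 and 149 bases before the start, overlaps the one in capitals and is not marked. Ccne1 had no match in this window. The 11 tested members with a word had a median log2 fold change of 0.02 (5 negative), and the 15 without had 0.01 (7 negative).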

How the data were processed

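RNA of sorted follicular B cells was sequenced from a stranded mRNA kit with paired 100 bp reads, according to the labels. The submitters' processing notes name Trim Galore, TopHat2 2.0.12, HTSeq, DESeq2 1.10.1 and build GRCm38; whether counting used strand is not stated. The authors deposited raw counts for 43629 genes, and all tests here rest on these counts. Their deposited normalized table, a signal equal to the raw count over a constant in each library (departure at most 5.7e-10), served as a check. The log2 fold changes and adjusted p-values of the authors' deposited table are quoted where it is named. All columns were mapped by sample title and 0 were unmapped. Replicates are numbered in accession order.

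Counts were fitted over all 8 libraries in edgeR 4.0.16 (R 4.3.3) with filterByExpr, TMM factors, robust quasi-likelihood and group alone; p-values were Benjamini-Hochberg adjusted over 13035 genes. SEs came from the F statistic. The fit was tested on simulated data. GENCODE mouse release 21 (GRCm38) supplied lengths, 3' UTRs and symbols, the last for 42548 identifiers. Alternatives were DESeq2 1.42.0, voom with quality weights (limma 3.58.1), other scaling factors (RLE, upper quartile), no filter or 1 CPM in 4 libraries, no robust prior, the title number as a term, and each library removed. The nonamer, merged 3' UTRs and the longest transcript were tried for sites and lengths.

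Values by library are given for members that were called, did not overlap, or were highest in level or change in their class, and for Ccnd3, Mcm6, Cdt1 and Rrm1, chosen after their values were seen. Up to 2 pathway genes of smallest p are named per list. The germinal centre marker list is not reported here. The members and lists were chosen with earlier results of these data known. Exons of 13 members overlap a gene on the other strand, and those of Mcm7 also overlap Mir25 and Mir93 on the same strand. In 6 members (Mcm7, Pcna, Cdc6, Rrm1, Rrm2 and Tyms) 100-base stretches are shared with other transcripts, up to 10.1% of Pcna's. The counts of all these members are uncertain for that reason, by an amount that was not tested. Ccne1 and E2f2 have neither overlaps nor shared stretches.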

Additional observations from a re-analysis of the deposited data

How the results depend on the processing

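Ccne1 and E2f2 stayed below 0 in all 16 alternatives, and both were called in the 8 that kept every library. With the title number in the fit 4 members were called lower, adding Ccnd3 and Cdkn2d, and 1 higher (Rrm1). With 1 library left out 0 to 3 members were called lower: 0 without control replicate 2, 3 or 4 or labelled replicate 2 or 4, 1 without control replicate 1 or labelled replicate 3, and 3 without labelled replicate 1. Pathway genes called higher numbered 2 with DESeq2, limma voom or the title number, and 0 to 2 with 1 library left out. Those called lower numbered 2 with DESeq2, 1 with limma voom, RLE factors or the 1 CPM filter, 3 with the title number, and 0 to 3 with 1 library left out; the upper values 2 and 3 came without labelled replicate 1. All genes called numbered 407, against 882 with DESeq2, 1053 with limma voom, 1030 with the title number, and 79 (without control replicate 3) to 948 (without labelled replicate 1). Members without overlap numbered 3, and 5 with upper-quartile factors, a check of this count chosen after seeing the data, which added Cdt1 and Rrm1. The nonamer, a stricter word, was in 4 members and the heptamer in 15. The cause of the other differences was not tested. Counts limit Ccnd1, Ccne2 and Cdc6 most, and E2f7 and E2f8 were tested without the filter only.

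No paired analysis was run because the labels give the groups no shared replicate numbers. Title numbers alternate between the groups, and blocks of adjacent numbers were not tested.

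Of 525 values under alternatives 34 changed sign, in 16 members, none of them called. The log2 fold change was -0.055 with limma voom and -0.066 with the title number in Cdk6, -0.013 and -0.011 in Rb1, and -0.018 with the title number in Tyms. In Mcm6 it was 0.0091 with upper-quartile factors, 0.0029 with the 1 CPM filter and 0.0058 with the title number. With 1 library left out it ran from -0.18 to 0.13 in Ccnd1, -0.0014 to 0.11 in Ccnd2, -0.22 to 0.040 in Ccne2, -0.0049 to 0.052 in Cdk2, -0.062 to 0.0095 in Cdk4, -0.16 to 0.18 in Cdk6, -0.057 to 0.080 in Cdkn1b, -0.11 to 0.0017 in Cdkn2c, -0.015 to 0.070 in E2f5, -0.032 to 0.10 in Rb1, -0.0041 to 0.052 in Rbl2, -0.016 to 0.041 in Mcm2, -0.044 to 0.00030 in Mcm4, -0.010 to 0.058 in Mcm5, -0.024 to 0.018 in Mcm6 and -0.084 to 0.18 in Tyms.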

Other observations

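The ratio of 2 genes within a library does not depend on how libraries are scaled. E2f2 over E2f3, per length, was 3.47, 4.66, 3.91 and 4.01 in controls 1 to 4. The labelled libraries 1 to 4 had ratios of 2.80, 2.23, 3.28 and 2.22. These groups did not overlap, which follows from E2f2 being lower and E2f3 higher without overlap and adds no separate result. Ccnd3 over Ccnd2, per length, was 2.37, 2.12, 1.86 and 1.63 in controls, and 2.01, 1.62, 1.47 and 1.13 with the label, with overlap between groups. Both pairs were chosen after their values were seen, and neither ratio was tested.

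The tested members varied between libraries of a group by a median coefficient of variation of 7.18% in controls and 7.23% in the labelled libraries, where all tested genes had 7.37% and 9.04%. The labelled libraries had the larger value in 20 of 33 members and in 8218 of 13035 tested genes. The sets were not matched for level.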
